A study of Mus musculus with 30 samples.

Results

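Among 10 left ventricles from hRXFP1tg mice (TG), each collected 8 weeks after the aortic arch was narrowed (transverse aortic constriction, TAC), Acta1 mRNA differed widely in amount, and the genes described here are those whose levels followed that of Acta1 from heart to heart. Acta1 encodes skeletal alpha-actin, a fetal actin that the loaded adult heart makes again. The 10 TG TAC samples are 10 of 30 in the study. The genes were chosen by these hearts' own values: Spearman's rho of log2(CPM + 1) with that of Acta1, where CPM is a gene's count per 1000000 counts of its library, had to be at least 0.7, or at most -0.7, over the 10 hearts and again over the 9 without replicate 1. Of 12060 ranked genes with a mean of at least 2 CPM in TG TAC hearts, 158 followed Acta1 positively (1.31%) and 162 negatively (1.34%), which makes 320 tracking genes in all. A further 12406 listed genes lay under that mean and were not ranked. Since the choice used the values in these hearts, every rho among TG TAC hearts is a description and carries no test. Of all possible orderings of 10 hearts, 0.889% reach 0.7 in both rankings in 1 direction.

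The hearts not used for the choice are 10 non-transgenic (NTG) hearts with 8 weeks of TAC, 5 TG Sham hearts and 5 NTG Sham hearts, which had the operation without a constriction. All are mouse left ventricle, with 1 strand-specific mRNA library each. The transgene is the human relaxin receptor RXFP1, which the study's title describes as overexpressed in cardiomyocytes, and the TG Sham hearts carry it too. The labels do not give the strain, sex or age of the mice, the promoter of the transgene or the pressure gradient of any heart. They do not say that samples are separate animals, so p-values measure the spread between these samples, which may be technical. Library totals were 9791034 to 11205397 counts in TG TAC hearts and 9231678 to 13093351 in all 30. The gene list is that of the mouse: mouse Rxfp1 had 0 to 14 counts in each TG TAC library and 0 to 4 in each NTG TAC library, and the human receptor's mRNA was not measured as such.

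A ventricle that pumps against a narrowed aorta thickens, and its muscle cells turn on genes of the fetal heart, among them natriuretic peptides and skeletal actin. Stretch-responsive cofactors at the Z-disc, small heat shock proteins that hold filaments in shape, and matrix from fibroblasts accompany this growth. Genes of mitochondrial energy production and of calcium uptake into the sarcoplasmic reticulum are known to decline in the same setting. Regulation of many load-responsive muscle genes runs through serum response factor, which binds the CArG box, and TEAD factors, which bind the M-CAT element.

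The promoters shown are those of Acta1, on which the ranking turns, and of Ankrd1 and Nppa, the tracking genes with the largest change in the hypertrophy list. Each line gives the 250 bases before the gene's start, 5′ to 3′ on the gene's strand, from RefSeq on the build GRCm38.p6, and capitals mark M-CAT elements (CATTCC or GGAATG), CArG boxes and TATA boxes (TATAAA or TTTATA), searched on both strands. The windows are chr8:123894776-123895025 (minus strand) for Acta1, chr19:36119845-36120094 (minus strand) for Ankrd1 and chr4:148000472-148000721 (plus strand) for Nppa.
Acta1: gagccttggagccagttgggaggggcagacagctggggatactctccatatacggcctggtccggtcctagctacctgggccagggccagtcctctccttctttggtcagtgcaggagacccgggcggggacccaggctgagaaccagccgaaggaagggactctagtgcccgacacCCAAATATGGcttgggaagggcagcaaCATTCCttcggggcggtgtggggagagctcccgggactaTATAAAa
Ankrd1: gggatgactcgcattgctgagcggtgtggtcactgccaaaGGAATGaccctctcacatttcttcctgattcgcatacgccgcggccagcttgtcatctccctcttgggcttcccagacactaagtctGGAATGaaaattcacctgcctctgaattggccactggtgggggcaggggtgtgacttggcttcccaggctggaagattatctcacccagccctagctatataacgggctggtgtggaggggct
Nppa: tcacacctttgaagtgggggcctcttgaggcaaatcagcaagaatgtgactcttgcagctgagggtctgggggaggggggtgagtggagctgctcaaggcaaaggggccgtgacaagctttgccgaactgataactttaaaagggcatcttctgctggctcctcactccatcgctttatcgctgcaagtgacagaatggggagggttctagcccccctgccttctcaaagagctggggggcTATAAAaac
The Acta1 window holds 1 CArG box, 1 M-CAT element and 1 TATA box, the Ankrd1 window holds 2 M-CAT elements, and the Nppa window holds 1 TATA box. The windows of Xirp2, Des and Hspb7, tracking genes of the same list, hold none of the 3 motifs. A window was found for 122 of the 158 positive and 123 of the 162 negative tracking genes. An M-CAT element lay in 15.6% of the positive windows, 12.2% of the negative windows and 10.7% of the 9617 windows of all ranked genes. A CArG box lay in 0.82% of the positive windows, in 0 of the 123 negative windows and in 1.21% of the windows of all ranked genes. A TATA box lay in 5.74% of the positive, 4.88% of the negative and 6.46% of all windows. A match of letters describes the sequence only, and no match says only that these letters are not in this window.

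Acta1 (mouse gene ID 11459, chromosome 8, 123891758 to 123894775, mm10) was lowest at 1222 CPM, in the median at 6601 CPM and highest at 8956 CPM in TG TAC hearts, a 7.33-fold range. In TG Sham hearts it was 665, 276, 579, 685 and 279 CPM. The groups did not overlap, and the lowest TG TAC heart was nearer to the TG Sham hearts than to the TG TAC median. In order, the TG TAC replicates were replicate 1 at 1222, replicate 6 at 2737, replicate 10 at 5958, replicate 7 at 6182, replicate 9 at 6344, replicate 2 at 6858, replicate 8 at 7441, replicate 5 at 7852, replicate 3 at 7870 and replicate 4 at 8956 CPM. The range rests on replicates 1 and 6, since the other 8 hearts lie within 1.503-fold of each other. Replicate 1 is also the only TG TAC sample whose name carries a number of 100 or more, and what that number marks is not stated. In NTG TAC hearts Acta1 was lowest at 1181 CPM, in the median at 8048 CPM and highest at 14630 CPM, and in NTG Sham hearts it ran from 540 to 1273 CPM.

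The genes whose order was most like that of Acta1 were Stc1, the secreted hormone stanniocalcin 1, and Apod, a lipid-carrying lipocalin, both with a rho of 0.94 over 10 hearts and 0.93 over 9. Stc1 was lowest at 2.97, in the median at 7.33 and highest at 10.2 CPM in TG TAC hearts, against 1.58, 3.85, 2.77, 6.62 and 6.74 CPM in TG Sham hearts. Apod was lowest at 7.98, in the median at 12.8 and highest at 20.7 CPM in TG TAC hearts, against 11.1, 6.87, 7.21, 8.34 and 7.59 CPM in TG Sham hearts. For both genes the TAC and Sham groups overlapped, and replicates 6 and 1 held the 2 lowest TG TAC values. Among the next places were A930033H14Rik, Kif26b (a kinesin-family protein), the pseudogene Znf41-ps, Sypl2 (a membrane protein of the muscle triad, also called mitsugumin 29), Pagr1a, Spata2l, Blk (a Src-family kinase of B cells), Bcl2 (an inhibitor of cell death), Il18bp (a secreted blocker of interleukin 18), Ccm2, Setd3 (the enzyme that methylates a histidine of actin) and Dnaic1. Sypl2 was lowest at 3.23, in the median at 7.13 and highest at 8.70 CPM in TG TAC hearts, against 2.24, 3.02, 2.59, 3.44 and 2.57 CPM in TG Sham hearts. Setd3 covered a narrow range, from 114.3 to 136.5 CPM around a median of 125.9 CPM in TG TAC hearts.

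**Figure D1:**
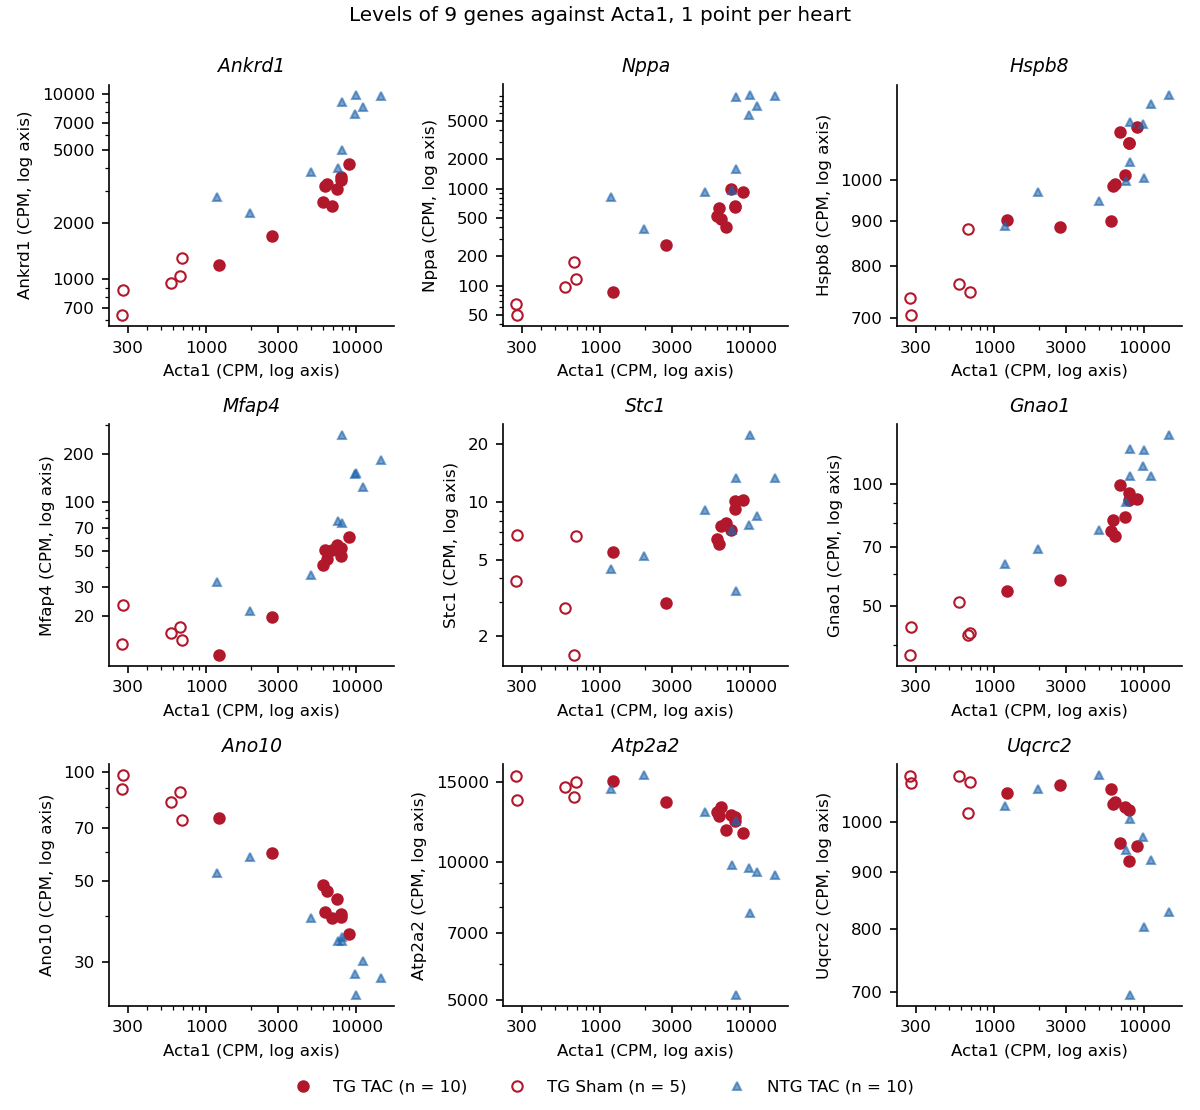
Level of 9 genes (CPM, log axis) against Acta1 (CPM, log axis), 1 point per heart, for 10 TG TAC hearts (filled circles), 5 TG Sham hearts (open circles) and 10 NTG TAC hearts (triangles). The TG TAC points of Ankrd1 run between 1201 and 4172 CPM as Acta1 runs between 1222 and 8956 CPM, and those of Ano10 run the other way, between 74.8 and 35.8 CPM.

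Rank and size of change were different properties. The least-squares slope in TG TAC hearts, in log2 CPM of a gene per log2 CPM of Acta1, had a median of 0.13 over the 158 positive and -0.09 over the 162 negative genes, and it ran between -0.35 and 1.09. A slope of at least 0.25 in size was found in 27 positive and 11 negative tracking genes, and in 253 of all 12060 ranked genes. The steepest was that of Nppa, at 1.09, followed by Fmod at 0.92, Mfap4 at 0.82, Thbs4 at 0.76, Lman1l at 0.74 and Ankrd1 at 0.58. Most tracking genes therefore kept the order of Acta1 while changing little. All these slopes rest largely on replicates 1 and 6. The SD of log2(CPM + 1) of Acta1 was 0.89 over the 10 hearts and 0.20 over the 8 without them. The lowest Fmod value lay below the 1 CPM added before the log, so its slope is imprecise. At the edge of the choice, Rpl31-ps12 (0.77 over 10 hearts, 0.70 over 9) and Rplp1 (-0.78 and -0.70) were the last included, and Sik1 (0.697 and 0.77) and Ajuba (-0.697 and -0.77) the first left out. Over the 8 hearts without replicates 1 and 6, all 320 kept the sign of their rho. Of the 158 positive genes 94, and of the 162 negative genes 86, were still past 0.7. Those 8 hearts were among the ones used for the choice, so keeping the sign was largely fixed by it. Ranked over the 8 hearts alone, 220 of the 12060 ranked genes passed 0.7 positively and 322 negatively. With fewer hearts and only 1 ranking, more of the possible orderings reach 0.7. These counts therefore cannot be set against 158 and 162 and do not show more tracking. The sets described held 42.7% of the 220 and 26.7% of the 322.

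Among 27 ranked genes of the hypertrophy programme, 6 tracked Acta1 positively and 0 negatively, against 1.31% and 1.34% of all ranked genes. Of the 27, 19 had a rho above 0, against 5740 of all 12060. The 6 were Nppa, Ankrd1, Xirp2, Des, Hspb7 and Cryab. Ankrd1, a stretch-responsive repressor at the Z-disc and in the nucleus, was lowest at 1201, in the median at 3121 and highest at 4172 CPM in TG TAC hearts, against 1038, 641, 954, 1306 and 876 CPM in TG Sham hearts. Its rho was 0.87 over 10 hearts, 0.82 over 9 and 0.74 over 8, and only replicate 1 lay inside the TG Sham range. Nppa, the precursor of atrial natriuretic peptide, was lowest at 86.8, in the median at 582 and highest at 988 CPM in TG TAC hearts, against 176, 64.9, 97.5, 116 and 49.8 CPM in TG Sham hearts. Its rho was 0.82 over 10 hearts, 0.75 over 9 and 0.64 over 8, and again replicate 1 alone lay inside the TG Sham range. Xirp2, an actin-binding protein of the intercalated disc, was lowest at 487, in the median at 932 and highest at 1023 CPM in TG TAC hearts, against 540, 436, 485, 429 and 341 CPM in TG Sham hearts. Again replicate 1 alone overlapped the TG Sham hearts. Des, the muscle intermediate filament desmin, was lowest at 3103, in the median at 3846 and highest at 4288 CPM in TG TAC hearts, all above the 5 TG Sham hearts at 2993, 2882, 3071, 3025 and 2883 CPM.

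Other genes of the fetal programme did not keep this order. Nppb, the precursor of B-type natriuretic peptide, was lowest at 141, in the median at 255 and highest at 420 CPM in TG TAC hearts, with a rho of 0.21 over 10 hearts and -0.05 over 9. Myh7, the slow myosin heavy chain, was lowest at 652, in the median at 792 and highest at 877 CPM in TG TAC hearts, against 707, 694, 745, 859 and 760 CPM in TG Sham hearts, and its rho was 0.26. Myh6, the fast myosin heavy chain of the adult mouse ventricle, had a rho of -0.56 over 10 hearts and -0.40 over 9. The median rho of the 27 genes was 0.26 over 10 hearts and 0.07 over 8, against -0.03 and -0.05 for all ranked genes.

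Of the 20 ranked genes in the list of heat shock proteins and small chaperones, 1 tracked Acta1 positively, against 1.31% of all ranked genes. A rho above 0 was found in 11 of the 20, against 5740 of all 12060. The median rho was 0.08 over 10 hearts and -0.02 over 9. Hspb8, the tracking gene, works with Bag3 to clear damaged filament proteins and had a rho of 0.88 over 10 hearts, 0.88 over 9 and 0.83 over 8. It was lowest at 886, in the median at 1000 and highest at 1145 CPM in TG TAC hearts, and all 10 lay above the 5 TG Sham hearts at 881, 738, 765, 749 and 706 CPM. Hspb7 and Cryab are small heat shock proteins too, but were counted in the hypertrophy list. Hspb7, the cardiovascular small heat shock protein, had a rho of 0.81 and ran from 5735 to 8460 CPM around a median of 7600 CPM in TG TAC hearts, above 4923, 4786, 5205, 5174 and 5111 CPM in TG Sham hearts. Cryab, alpha-B-crystallin, had a rho of 0.85 and ran from 3355 to 4067 CPM in TG TAC hearts, where 2 hearts lay inside the TG Sham range of 2697 to 3438 CPM.

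In the extracellular matrix list 39 of 40 ranked genes had a rho above 0, against 5740 of all 12060, and the median was 0.42. Of the 40, 5 tracked Acta1 positively, against 1.31% of all ranked genes: Mfap4, Bgn, Fmod, Thbs4 and Dcn. Mfap4, a microfibril-associated glycoprotein, was lowest at 11.5, in the median at 48.5 and highest at 61.1 CPM in TG TAC hearts, against 17.1, 13.5, 15.6, 14.2 and 23.2 CPM in TG Sham hearts. Bgn, the small proteoglycan biglycan, was lowest at 386, in the median at 761 and highest at 953 CPM in TG TAC hearts, against 494, 418, 429, 379 and 466 CPM in TG Sham hearts. For Mfap4 replicate 1 lay below all 5 TG Sham hearts and replicate 6 among them, for Bgn replicate 1 lay among them, and the other TG TAC hearts lay above all 5. Thbs4, a thrombospondin of the stressed heart, was lowest at 3.97, in the median at 13.6 and highest at 24.1 CPM in TG TAC hearts, and Fmod, fibromodulin, was lowest at 0.185, in the median at 3.81 and highest at 6.48 CPM. The fibrillar collagen gene Col1a1 had a rho of 0.53 over 10 hearts and 0.24 over 8, and Postn, periostin of activated fibroblasts, 0.58 and 0.17. Over the 8 hearts the median rho of the matrix list was 0.10. The summed CPM of 9 fibroblast marker genes moved with Acta1 in the same hearts, at 2520 to 3090 CPM with a rho of 0.79 over 10 hearts and 0.72 over 9, and its part in the matrix result was not tested. Dcn and Col1a1 count among those markers as well. In bulk tissue, fewer cells of a type and less RNA per cell cannot be told apart.

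Tgfb2, a ligand of the TGF-beta pathway, had a rho of 0.85 and ran from 23.6 to 38.9 CPM in TG TAC hearts. It was the 1 tracking gene among 23 ranked genes of that pathway. Of all ranked genes 1.31% tracked positively and 1.34% negatively. Gnao1, an alpha subunit of inhibitory G proteins, had a rho of 0.81 and was lowest at 54.5, in the median at 82.2 and highest at 99.6 CPM in TG TAC hearts, all above 42.4, 37.8, 51.1, 42.9 and 44.3 CPM in TG Sham hearts. Adcy1, an adenylate cyclase, tracked Acta1 positively among 31 ranked genes of adrenergic and cAMP signalling, while Gnas and Ppp1r1a, a stimulatory G protein subunit and an inhibitor of protein phosphatase 1, tracked it negatively. Lgals3, galectin 3 of activated macrophages, had a rho of 0.84 at only 2.97 to 7.71 CPM in TG TAC hearts. Summed over 12 macrophage markers the rho was 0.32 over 10 hearts and 0.07 over 9.

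**Figure D2:**
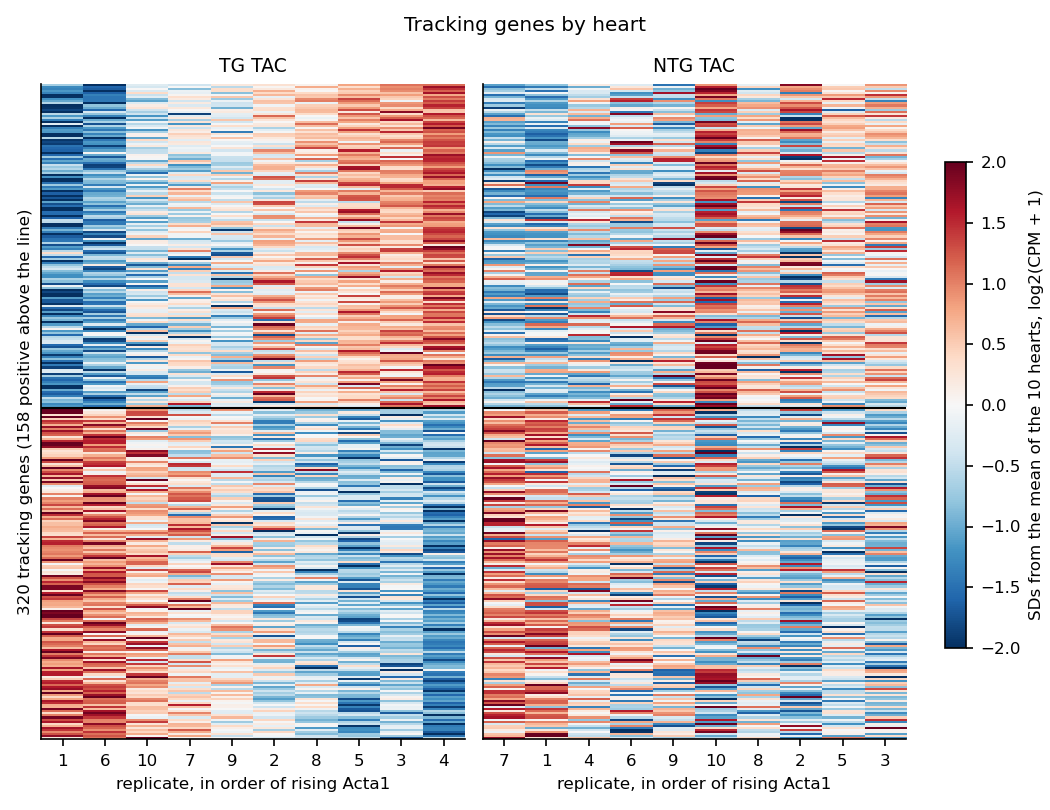
Tracking genes (rows, 158 positive above the line and 162 negative below it, the strongest rho toward the outer edges) in 10 TG TAC hearts (left) and 10 NTG TAC hearts (right), each group in order of Acta1. Colour gives SDs from the gene's mean over the 10 hearts of a group. The order at left was used to choose the genes, and at right replicates 7 and 1, with the least Acta1, stand first.

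The negative followers were led by genes of many functions: 2610044O15Rik8 (rho of -0.94 over 10 hearts and -0.97 over 9), Nbeal2, Pigv (a mannosyltransferase of GPI anchor synthesis), Ndst2 (an enzyme that sulphates heparan chains), Tm9sf1, Arhgef18 (a guanine nucleotide exchange factor), Nsg1, Sfmbt1, Dcaf12l1, Dapp1, Tfpi, Gid4 (a substrate receptor of a ubiquitin ligase), Gpr160 (an orphan receptor), BC025920 and Isoc1. Tfpi, the inhibitor of tissue factor that endothelial cells make, was lowest at 70.7, in the median at 75.5 and highest at 98.2 CPM in TG TAC hearts, all below the TG Sham hearts at 101.99, 100.9, 110.2, 114.5 and 103.5 CPM. Ano10, an anoctamin of the endoplasmic reticulum, had one of the steepest negative slopes, at -0.34. It was lowest at 35.8, in the median at 42.8 and highest at 74.8 CPM in TG TAC hearts, against 87.7, 89.7, 82.6, 73.6 and 97.8 CPM in TG Sham hearts. Replicates 1 and 6 held the 2 highest TG TAC values of Ano10, and only replicate 1 overlapped the TG Sham range. Ano10 was named after its values were seen, as were Gnao1, Lman1l, Ret and the genes called in the TAC comparison of TG hearts below.

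Mitochondrial energy genes leaned to the negative side as a list. Of 48 ranked genes of oxidative phosphorylation, 44 had a rho below 0, against 6320 of all 12060 ranked genes. The median was -0.48 over 10 hearts and -0.35 over 8. Of the 48, 5 tracked Acta1 negatively and 0 positively, against 1.34% and 1.31% of all ranked genes. Uqcrc2, a core subunit of complex III, had a rho of -0.87 over 10 hearts, -0.87 over 9 and -0.81 over 8. It was lowest at 922, in the median at 1035 and highest at 1082 CPM in TG TAC hearts, against 1021, 1102, 1102, 1087 and 1086 CPM in TG Sham hearts, so the groups overlapped and the range was small. Sdha, the catalytic subunit of complex II, was lowest at 1314, in the median at 1457 and highest at 1749 CPM in TG TAC hearts, with a rho of -0.84. Ndufv1 of complex I and Atp5a1 and Atp5b of the ATP synthase were the other 3. In fatty acid oxidation 34 of 42 ranked genes had a rho below 0 with a median of -0.43, but the median over 8 hearts was -0.06 and Acadm, the medium-chain acyl-CoA dehydrogenase, was the 1 tracking gene. In the tricarboxylic acid cycle the median was -0.35 over 10 hearts and -0.29 over 8. Of its 23 ranked genes 20 had a rho below 0 and 1 tracked Acta1 negatively, against 1.34% of all ranked genes.

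Atp2a2, the calcium pump SERCA2 of the sarcoplasmic reticulum, was lowest at 11560, in the median at 12630 and highest at 15031 CPM in TG TAC hearts, against 13898, 15445, 14570, 14961 and 13676 CPM in TG Sham hearts. Its rho was -0.84 over 10 hearts and -0.78 over 9, replicate 1 was the highest TG TAC heart, and the groups overlapped in that heart alone. Ryr2, the calcium release channel, had a rho of -0.82. Atp2a2 and Ryr2 were the 2 tracking genes among 22 ranked genes of calcium cycling, whose median rho was -0.10. Of all ranked genes 1.34% tracked negatively. The summed CPM of 9 cardiomyocyte markers had a rho of -0.53 over 10 hearts and -0.35 over 9, at 75944 to 83777 CPM and with Ryr2 among them, and its part in these results was not tested. The muscle creatine kinase gene Ckm, which the heart also makes, tracked Acta1 at -0.76. Of the other 12 genes in the skeletal muscle list, Myh4 had 0 counts, Myh1 had 4, Myh2 had 3 and Tnnc2 had 2 over the 10 TG TAC libraries. The highest were Tnni2, Mylpf and Tnnt3, which reached 2.13, 1.33 and 0.998 CPM in a TG TAC heart.

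The lists of the integrated stress response (30 ranked genes), immediate-early genes (22) and the circadian clock (19) held no tracking gene. Of all ranked genes 1.31% tracked positively and 1.34% negatively, so lists of this size can hold none at that share. Other lists held none either, among them muscle growth and atrophy signals (36) and ion channels and connexins (25). In the integrated stress response and serine synthesis list 23 of 30 ranked genes had a rho below 0, with a median of -0.28 over 10 hearts and -0.10 over 8. Phgdh, the first enzyme of serine synthesis, was lowest at 1.58, in the median at 2.75 and highest at 5.92 CPM in TG TAC hearts, all below 9.88, 10.4, 13.7, 11.3 and 9.84 CPM in TG Sham hearts, and its rho with Acta1 was -0.60. Mthfd2, a mitochondrial folate enzyme, lay between 12.6 and 38.4 CPM in TG TAC hearts, all below the TG Sham range of 60.3 to 84.4 CPM, with a rho of -0.58. Tbx15, Aqp8 and Bdh1, a transcription factor, a water channel and a ketone body enzyme, had a rho of 0.37, 0.48 and 0.72 over 10 hearts and 0.13, 0.28 and 0.62 over 9. Immediate-early genes had a median rho of 0.34 over 10 hearts and 0.14 over 8, clock genes 0.33 and 0.07, and 29 ranked cytosolic ribosomal proteins -0.22 and -0.05. Rplp1 was the 1 tracking gene of that ribosomal list, which is not complete: Rps7 (-0.88) and Rpl24 (0.78), named after their values were seen, also tracked Acta1 and are not in it.

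**Figure D3:**
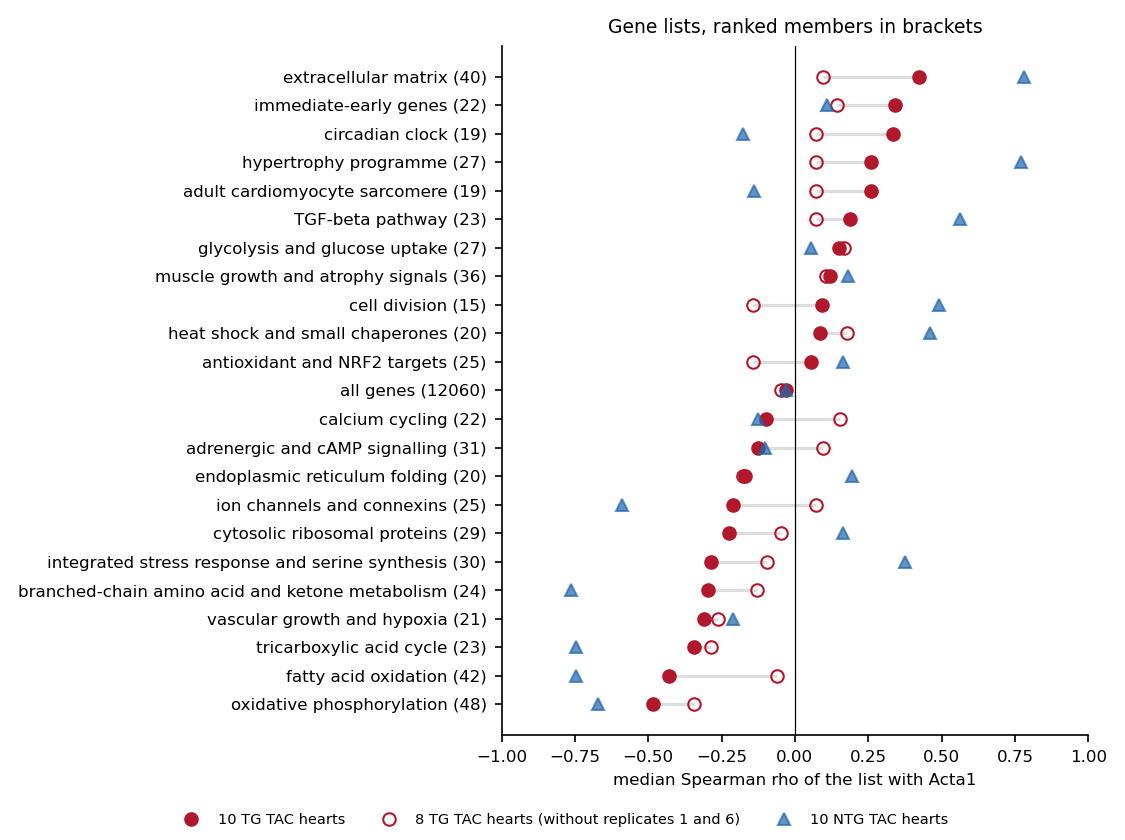
Median Spearman rho with Acta1 for 22 gene lists and for all 12060 ranked genes (number of ranked members in brackets), over 10 TG TAC hearts (filled circles), over the 8 without replicates 1 and 6 (open circles) and over 10 NTG TAC hearts (triangles). Extracellular matrix stands at 0.42, 0.10 and 0.78 and oxidative phosphorylation at -0.48, -0.35 and -0.67.

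The 10 NTG TAC hearts give the same measure in hearts that the choice did not use. There, 53 of the 158 positive tracking genes had a rho with Acta1 of at least 0.7 (33.5%, against 7.89% of all ranked genes) and 52 of the 162 negative genes had one of at most -0.7 (32.1%, against 10% of all). The median rho in NTG TAC hearts was 0.56 for the positive and -0.48 for the negative genes, against -0.03 for all, and 112 of 158 and 126 of 162 had the sign seen in TG TAC hearts. The 3 that passed 0.7 in the opposite direction were Bbs7, Cyp2j6 and Asb1. Ankrd1 and Nppa had a rho of 0.90 each in NTG TAC hearts, Sypl2 0.94, Hspb8 0.90, Mfap4 0.82, Sdha -0.83, Atp2a2 -0.82 and Ano10 -0.92. Several leaders of the ranking did not follow Acta1 there, among them Spata2l at -0.33, Ccm2 at -0.28, Tm9sf1 at 0.05 and Arhgef18 at 0.42. Nppb and Myh7, which did not track in TG TAC hearts, had a rho of 0.71 and 0.77 in NTG TAC hearts. Acta1 in NTG TAC hearts also had a rho of 0.61 with library total and 0.697 with the number of genes with a count. With the share of counts in the 20 most counted genes it was -0.62. With summed cardiomyocyte markers it was -0.76 and with summed fibroblast markers 0.73. The part of these measures in the NTG TAC values was not tested.

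As a test, edgeR's quasi-likelihood fit of the slope on log2 Acta1 over the 10 NTG TAC hearts called 6 of 13636 genes with a positive slope (0.044%) and 6 with a negative one (0.044%) at an adjusted p under 0.05. Of the tracking genes it called 1 positive, Gnao1, and 1 negative, Ano10. Gnao1 had a slope of 0.30 ± 0.042 (SE) in NTG TAC hearts with an adjusted p of 0.030, and Ano10 had -0.32 ± 0.043 (SE) with an adjusted p of 0.022. Their least-squares slopes in TG TAC hearts, from the values used for the choice, were 0.29 and -0.34. Both genes are named for passing the choice and the test, so like values in the 2 groups are largely fixed by that. The slopes of Ankrd1 at 0.59 ± 0.11 (SE; adjusted p = 0.074) and Nppa at 1.16 ± 0.30 (SE; adjusted p = 0.128) did not pass. Over the tracking genes the median slope in NTG TAC hearts was 0.11 for the 158 positive genes, of which 125 were above 0, and -0.08 for the 162 negative genes, of which 132 were below 0, against a median of 0.0017 for all genes tested. The count depends on the hearts and the tool: without NTG TAC replicate 10 the fit called 205 positive and 123 negative genes, without replicate 1 alone 0 and 0, and without both replicates 1 and 7, the hearts with the least Acta1, 0 and 0. DESeq2 called 371 and 235. At an unadjusted p under 0.05 edgeR found 2578 genes.

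**Figure D4:**
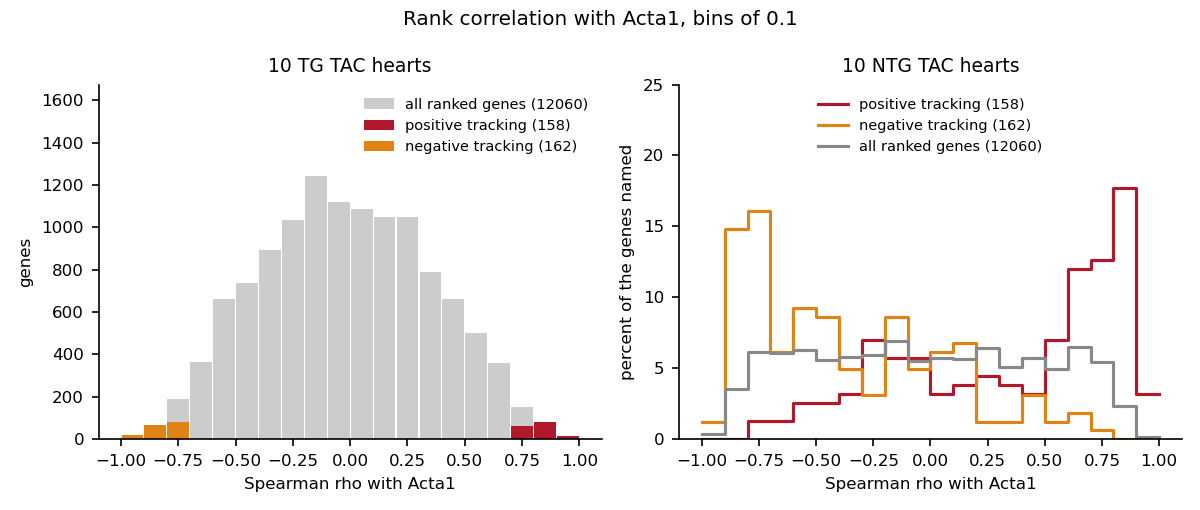
Spearman rho with Acta1 in bins of 0.1: number of genes over 10 TG TAC hearts (left) and percent of each set over 10 NTG TAC hearts (right). Among NTG TAC hearts 33.5% of the positive tracking genes lie at or above 0.7 and 32.1% of the negative ones at or below -0.7, against 7.89% and 10% of all ranked genes.

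The slopes of TG TAC and NTG TAC hearts were compared in 1 fit over the 20 hearts. No gene of 13830 tested had a difference between the slopes with an adjusted p under 0.05 in edgeR's test (0% positive and 0% negative), with 443 genes at an unadjusted p under 0.05. The difference, TG minus NTG, was -0.01 ± 0.13 (SE) for Ankrd1, -0.05 ± 0.36 (SE) for Nppa, -0.58 ± 0.25 (SE; adjusted p = 0.97) for Myh7 and -0.60 ± 0.28 (SE; adjusted p = 0.97) for Mthfd2. A missed threshold does not show equal slopes.

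Between TAC and Sham hearts of the TG genotype, edgeR called 13 of the 158 positive tracking genes higher (8.23%, against 0.898% of all 13588 genes tested) and 9 of the 162 negative ones lower (5.56%, against 0.53% of all), and 0 in the opposite direction. This comparison shares its TG TAC samples with the ranking. The 13 that rose were Sypl2, Hspb8, Sh2d4a, Cacnb1, Ankrd1, Wipi1, Cnksr1, Taco1, Rsl1d1, Gnao1, Hspb7, Fchsd1 and Plin3. Cnksr1, a scaffold of Ras and MAP kinase signalling, rose by 1.92 ± 0.32 (log2, SE; adjusted p = 0.0022), with 14.97, 30.02 and 40.42 CPM as lowest, median and highest in TG TAC hearts, against 8.48, 4.31, 10.5, 8.97 and 6.52 CPM in TG Sham hearts. Ankrd1 rose by 1.59 ± 0.33 (adjusted p = 0.011), Sypl2 by 1.27 ± 0.29 (adjusted p = 0.015), Gnao1 by 0.90 ± 0.15 (adjusted p = 0.0022) and Hspb7 by 0.59 ± 0.10 (adjusted p = 0.0020). The difference for Nppa was 2.48 ± 0.69 (adjusted p = 0.068) and did not pass. The 9 that fell were Tfpi, Ano10, Ccni, Khdc4, Ret, Tmem47, Chd3, Pth1r and Ybx1. Ret, the receptor kinase for GDNF-family ligands, fell by 1.03 ± 0.20 (adjusted p = 0.0043) and lay between 3.71 and 8.97 CPM in TG TAC hearts, below all 5 TG Sham hearts at 10.3, 16.7, 15.1, 9.43 and 11.02 CPM. Ano10 fell by 0.85 ± 0.16 (adjusted p = 0.0043). All 5 TG Sham samples and 1 of 10 TG TAC samples carry a number of 100 or more in their name: with that number as a term 1 positive tracking gene was called higher and 0 negative ones lower, and the number and the surgery can hardly be told apart here. Leaving out single hearts gave 6 positive and 4 negative tracking genes without TG Sham replicate 2, and 20 and 14 without TG TAC replicate 1.

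Between TAC and Sham hearts of the NTG genotype, which shares no sample with the ranking, 70 of the 158 positive tracking genes were called higher (44.3%, against 9.46% of all) and 48 of the 162 negative ones lower (29.6%, against 8.13% of all). The median log2 difference was 0.27 over the positive and -0.15 over the negative genes, against 0.0017 over all genes tested. In the opposite direction 0 positive genes fell and 2 negative genes rose, Irak3 and Dcaf13. Ankrd1 rose by 1.84 ± 0.34 (adjusted p = 0.0017), Nppa by 3.87 ± 0.75 (adjusted p = 0.0024) and Mfap4 by 2.40 ± 0.48 (adjusted p = 0.0027) in NTG hearts. Sdha fell by 0.40 ± 0.11 (adjusted p = 0.012) and Atp2a2 by 0.42 ± 0.15 (adjusted p = 0.043). In the matrix list 34 of 42 genes tested rose in NTG hearts, and in oxidative phosphorylation 39 of 48 fell. In TG hearts 0 of the 42 were called higher and 0 of the 48 lower, against 0.898% and 0.53% of all genes tested. The median log2 differences of the 2 lists in TG hearts were 0.31 and -0.12. A fit to the NTG groups alone called 19 positive genes higher and 7 negative ones lower. In NTG hearts too the sample-name number is uneven: 4 of 5 Sham and 3 of 10 TAC samples carry 100 or more. With that number as a term 61 positive tracking genes were called higher and 23 negative ones lower.

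Heart by heart, the share of the 158 positive genes above all 5 TG Sham hearts was 13.9% in TG TAC replicate 1 and 23.4% in replicate 6, against 14.2% and 16.8% of all ranked genes in the same 2 hearts. It was 41.8% in replicate 10, 59.5% in replicate 2 and 82.9% in replicate 4, against 22.3%, 22.0% and 21.1% of all ranked genes. Replicate 1 thus lay above the TG Sham range in these genes no more often than in any gene. Since the genes were chosen for their order in these hearts, the climb itself was fixed by the choice. In NTG TAC hearts, where it was not, the share above all 5 NTG Sham hearts was 31.0% in replicate 7 and 27.8% in replicate 1, the 2 with the least Acta1, and between 54.4% and 69.6% in the other 8. The share of all ranked genes above the NTG Sham range was 15.8% to 29.3% in 9 of the NTG TAC hearts and 41.6% in replicate 10, which stood apart.

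**Figure D5:**
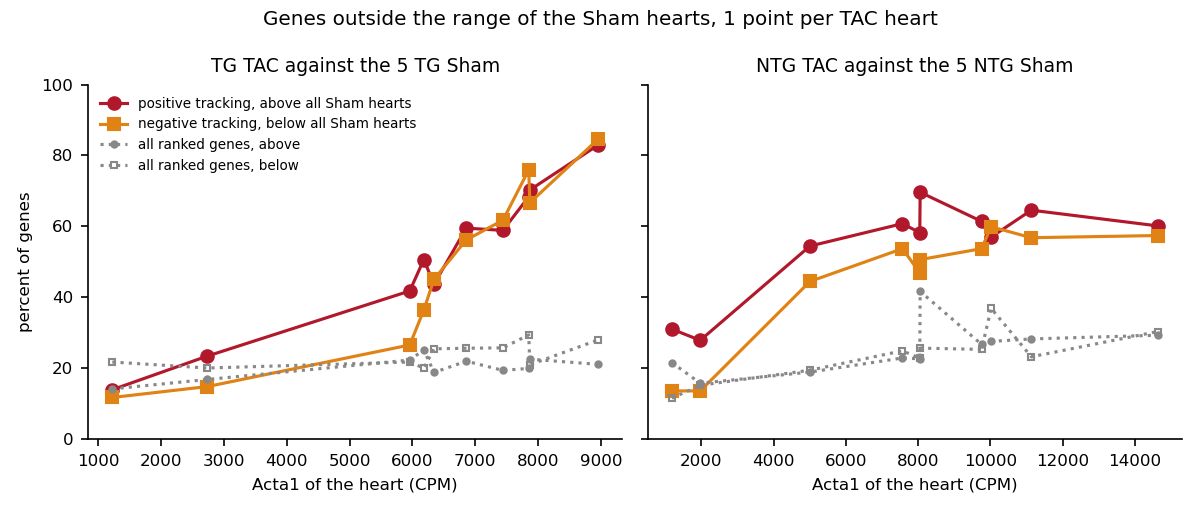
Percent of the 158 positive tracking genes above (circles) and of the 162 negative ones below (squares) all 5 Sham hearts of the same genotype, for each TG TAC heart (left) and NTG TAC heart (right) against its Acta1 level in CPM, with all ranked genes in grey. In TG TAC hearts the positive share runs between 13.9% and 82.9%, and in NTG TAC hearts between 27.8% and 69.6%.

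Ranking the TG TAC hearts by another load gene gave partly other genes. With Ankrd1 as the anchor 143 genes tracked positively, of which 59 were shared, 37.3% of the Acta1 set and 41.3% of the Ankrd1 set. With Nppa 148 tracked positively, of which 53 were shared, 33.5% of the Acta1 set and 35.8% of the Nppa set. Library total (rho of -0.08), the number of genes with a count (0.15) and the share of counts in the 20 most counted genes (-0.41) did not reach 0.7 with Acta1 in TG TAC hearts. Summed markers of endothelial cells (9 genes, 1347 to 1797 CPM) had a rho of -0.58 and those of nerve and Schwann cells (8 genes, 18.12 to 26.99 CPM) -0.67 with Acta1. Conduction system markers had a rho of -0.67, adipocyte markers -0.63 (at most 0.963 CPM in all, with Lep and Ucp1 at 0) and neutrophil markers -0.62 (at most 4.82 CPM, with Ly6g at 0). The summed atrial markers had a rho of 0.81 over 10 hearts and 0.73 over 9, at 182 to 1062 CPM. Nppa, 1 of them, made up much of that sum, at 86.8 to 988 CPM. Of the 5 ranked atrial markers 3 had a rho below 0, and the median rho of the 5 was -0.41. The part of these markers in the tracking sets was not tested.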

How the data were processed

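Left ventricular mRNA libraries of 30 samples were analysed: 10 TG TAC, 5 TG Sham, 10 NTG TAC and 5 NTG Sham, grouped by the genotype and treatment in the labels. The deposited values are raw read counts per gene, and the deposited CPM equal each count divided by its library's total. Per the submitters' processing notes, the named tools are edgeR 3.17, Bowtie2 2.2.9, Trim Galore 0.6.4 and TopHat, with mm10 as the build; the counting program and its strand setting are not given in the sources used here. Of 24467 gene IDs, 24437 matched a RefSeq symbol.

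Spearman's rho used log2(deposited CPM + 1) and genes with a mean of at least 2 CPM in TG TAC hearts. The members and gene lists were chosen with earlier results of these data known. Counts were tested with edgeR 4.0.16 (robust quasi-likelihood fit, TMM factors, filterByExpr with a minimum count of 10, R 4.3.3), with Benjamini-Hochberg adjustment over all genes tested and a threshold of 0.05. The slope on log2(CPM + 1) of Acta1 was fitted over the 10 NTG TAC samples, TAC minus Sham over all 30 samples with 4 groups, and the difference between slopes, chosen after seeing the data, over the 20 TAC samples. The scripts were tested on simulated data. Alternatives used DESeq2 1.42.0, limma 3.58.1, other scalings, filters and sample sets. Rankings used Python 3.11.15 with pandas 2.3.3 and SciPy 1.17.1.

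Named genes were Acta1, 13 genes given whatever their values, the 15 strongest tracking genes in each direction and up to 4 tracking members of a list; others were named after their values were seen. One result under this rule is not reported here. One count equals 0.0764 to 0.108 CPM across the libraries, and depth limits the precision of genes of a few CPM.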

Additional observations from a re-analysis of the deposited data

Results flagged for a closer look

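Of 44 genes examined for a single heart far from the rest, Myh6, the fast myosin heavy chain, stood out in TG TAC replicate 1. It had 25904 CPM there against a median of 20494 CPM over the 10 TG TAC hearts, and the gap to the nearest heart was 0.654 of the whole range, above Dixon's critical value. Chance alone marks about 1 in 20 groups. The same heart had the least Acta1.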

How the results depend on the processing

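With a threshold on rho of 0.6 in place of 0.7, 344 genes followed Acta1 positively and 397 negatively, and with 0.8, 66 and 53. Without TG TAC replicates 1 and 6, chosen after seeing the data, 220 and 322 did. Pearson's r gave 190 and 140, of which 60 and 47 were shared with the sets described. Leaving out single TG TAC hearts gave 126 to 305 positive and 148 to 394 negative genes, lowest without replicate 6 and highest without replicates 10 and 3. The slope in NTG TAC hearts called 15 genes higher with no filter on low counts (3 of them tracking) and 371 higher and 235 lower with DESeq2 (41 and 23 tracking). Limma-trend called 2 tracking genes higher. A term for sample-name numbers of 100 or more left 3 genes lower. With all 20 TAC samples 628 were higher and 575 lower (59 and 43 tracking). Over the 7 samples with a number under 100, without replicates 1 and 7, and in the exact rank test, 0 were called in either direction, tracking genes included. Leaving out single NTG TAC hearts gave 0 to 205 higher and 0 to 123 lower genes (0 to 26 and 0 to 11 tracking), the most without replicate 10. The slope difference stayed at 0 calls without each heart in turn.

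For TAC minus Sham in TG hearts DESeq2 called 239 genes higher and 140 lower (26 tracking genes higher), the 2 groups alone gave 556 and 398 (65 and 24 tracking), and the number term gave 13 and 3 (1 and 0 tracking). Leaving out single hearts gave 58 to 173 higher and 35 to 123 lower (6 to 20 and 4 to 14 tracking). In NTG hearts the 2 groups alone gave 132 and 86 (19 and 7 tracking), and the number term gave 700 lower (23 tracking). Leaving out single hearts gave 892 to 1663 higher and 658 to 1537 lower (58 to 79 and 32 to 59 tracking). The cause of these changes was not tested. Deviations of same-numbered samples of different groups had a median correlation of 0.0496 over 25 pairs, from -0.211 to 0.637, with 6 pairs over 0.1. The highest was that of replicate 1 of TG TAC and NTG TAC, both low in Acta1. Since not every pair was over 0.1, the numbers were not taken as pairs. With a replicate block 981 genes were higher and 868 lower in NTG hearts (67 and 49 tracking), and 64 lower in TG hearts (15 tracking genes higher and 8 lower), each within 1.5 times the count without it.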
